A study of Rattus norvegicus with 6 samples.

Results

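Tetraspanins are small proteins that cross the membrane 4 times and organise other membrane proteins. The 10 described here are Cd82, Cd9, Cd63, Cd81, Cd151, Tspan3, Tspan4, Tspan5, Tspan9 and Tspan14, picked out of the 20609 genes of the count table by their symbols. They were chosen by a list drawn up with the differences between PCBP1-OE and control libraries already known, so their values in that comparison are a description and carry no test. RNA-seq libraries were 3 of cells labelled PC12 that received a control plasmid (Ctrl) and 3 of cells with the same label transfected to overexpress PCBP1 (PCBP1-OE). PC12 is a rat cell line from a pheochromocytoma, a tumor of the adrenal medulla. Per the study's methods the plasmid encoded EGFP-tagged PCBP1 and was delivered with Lipofectamine, and how many of the cells took it up is unknown here. PCBP1 is a protein that binds C-rich stretches of RNA, and the question of the comparison is which transcripts differ when it is overexpressed. No row of the table was matched to Pcbp1, so the overexpression itself was not checked in these libraries. The study reports more PCBP1 in the overexpressing cells by RT-qPCR and western blot, and elsewhere calls the overexpression stable.

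Tetraspanins associate laterally with integrins, immunoglobulin superfamily proteins and one another, and these assemblies are known as the tetraspanin web. Cd82, also called KAI1, is known as a suppressor of metastasis and a restraint on integrin-mediated migration, while Cd9 and Cd81 act in cell fusion, myelin and exosomes. Cd63 lies mostly in late endosomes and lysosomes and is a standard marker of exosomes, vesicles that form inside endosomes and are then released. Tspan5 and Tspan14 belong to the TspanC8 subgroup, which carries the membrane protease Adam10 out of the endoplasmic reticulum.

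The libraries held 19730209 to 22315623 counts on genes. Values below are CPM, read counts scaled to a common library size with TMM factors that correct for the composition of each library, and are given in the order of replicates 1, 2 and 3. The markers went against the label in part, since most defining markers of chromaffin cells, the cell type that PC12 implies, were at or near 0, and the identity of the cells is therefore in doubt. Chga, Chgb, Dbh and Ddc, which encode chromaffin granule proteins and enzymes of catecholamine synthesis, had 0 to 9 counts per library. Th, the rate-limiting enzyme of that synthesis, was between 6.85 and 8.86 CPM, and Scg2, a granule protein, between 129 and 170 CPM. Sox10, a transcription factor of glial and neural crest cells, was at 362 to 408 CPM and S100b, a glial calcium-binding protein, at 212 to 243 CPM. The 6 glial markers together summed to 620 to 665 CPM in controls against 587 to 607 CPM in PCBP1-OE, with Mbp at 5 to 13 counts per library and no overlap of the sums between groups. The chromaffin list, 9 of 10 of it in the table, summed to 152 to 181 and 141 to 154 CPM. Leukocyte markers summed to 11.5 to 12.5 and 9.81 to 11.03 CPM, with Ptprc, the pan-leukocyte phosphatase, at 0 to 3 counts, and the fibroblast list, nearly all of it Pdgfra, to 225 to 230 and 200.1 to 212 CPM. Endothelial and adrenocortical lists summed to at most 5.90 and 7.90 CPM. The leukocyte and fibroblast sums did not overlap between groups either, while the chromaffin, endothelial and adrenocortical sums did. Of all single genes tested, 30.6% did not overlap between groups. The part of these differences in marker sums in the results below was not tested. In bulk RNA, a smaller number of cells of one kind and less RNA per cell cannot be told apart.

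Promoter sequences are shown for 3 members that behave differently in the counts, namely Cd81, which was lower in PCBP1-OE in every library, Cd63, whose difference was smaller, and Tspan5, whose group means were almost equal. They run from 250 bases before to 50 after the start of the gene, 5′ to 3′ on the strand of the gene, and come from RefSeq on the rat assembly GRCr8, whereas the counts were made on Rnor_6.0. Cd81 lies at chr1:207665047-207665346 on the plus strand, Cd63 at chr7:1921894-1922193 on the plus strand and Tspan5 at chr2:229967326-229967625 on the plus strand. Capitals mark GGGCGG on either strand, the core of the GC box bound by Sp1 family factors, and TATAAA on either strand, the TATA box.
Cd81: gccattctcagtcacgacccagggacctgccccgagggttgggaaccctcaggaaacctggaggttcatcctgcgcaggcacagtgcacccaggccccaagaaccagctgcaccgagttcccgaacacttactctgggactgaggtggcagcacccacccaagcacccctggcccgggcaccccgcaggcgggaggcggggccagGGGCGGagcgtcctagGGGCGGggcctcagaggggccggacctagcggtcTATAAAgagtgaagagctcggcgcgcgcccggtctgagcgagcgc
Cd63: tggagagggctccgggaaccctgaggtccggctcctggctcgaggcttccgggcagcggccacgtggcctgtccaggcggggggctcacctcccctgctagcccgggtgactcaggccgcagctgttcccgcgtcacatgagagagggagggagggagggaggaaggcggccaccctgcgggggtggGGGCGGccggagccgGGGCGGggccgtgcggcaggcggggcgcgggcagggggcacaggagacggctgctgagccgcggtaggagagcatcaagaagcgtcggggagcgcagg
Tspan5: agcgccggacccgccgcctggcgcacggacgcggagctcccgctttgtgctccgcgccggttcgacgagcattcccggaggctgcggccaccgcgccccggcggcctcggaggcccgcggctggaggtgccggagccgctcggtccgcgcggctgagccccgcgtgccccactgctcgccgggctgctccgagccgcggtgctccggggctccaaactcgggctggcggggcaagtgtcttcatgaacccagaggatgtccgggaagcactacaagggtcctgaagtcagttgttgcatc

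Cd81 held 2 matches of GGGCGG and 1 of TATAAA, Cd63 held 2 of GGGCGG, and Tspan5 held neither. Of the 8 members with an entry in the promoter table, 6 held GGGCGG, against 33.1% of all 33469 promoters, and Cd81 was the only one with TATAAA, which 14.2% of all promoters hold. CCCTCCC, a C-rich run searched on both strands because PCBP1 binds such runs, was in the promoters of Cd9, Cd63, Tspan9 and Tspan14 and in 20.8% of all promoters. The GC content of the 8 promoters ran from 61.7% to 75.0%, above the median of 51.7% over all promoters. No match of one motif overlapped a match of another in these promoters. The matches describe letters and say nothing of binding.

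Cd82 (ENSRNOG00000000047, chromosome 3) was measured at 651, 639 and 626 CPM in controls against 545, 536 and 552 CPM in PCBP1-OE. Every PCBP1-OE library lay below every control library, and the gap between groups was several times the spread within them. The means were 639 ± 12.7 and 544 ± 7.56 CPM (SD, n = 3 each), a difference of -14.8% and a log2 fold change (log2FC) of -0.23 with a standard error (SE) of 0.04. These values rest on 10803 to 14035 counts per library, so counting error is small beside the difference. Leaving out 1 library at a time kept the log2FC between -0.25 and -0.21.

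Cd81 (ENSRNOG00000020451, chromosome 1), a receptor used by hepatitis C virus, was at 241, 246 and 242 CPM in controls. In PCBP1-OE it was at 207, 214 and 216 CPM, again without overlap. The log2FC was -0.19 (SE 0.04), and the mean was 12.5 percent lower, at 212 ± 4.71 against 243 ± 2.53 CPM (SD, n = 3 each). Of all members, Cd81 came nearest to Cd82 in its pattern over the 6 libraries.

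Cd9 (ENSRNOG00000019556, chromosome 4), which takes part in sperm-egg fusion, overlapped between groups. It was at 715, 766 and 719 CPM in controls against 699, 672 and 720 CPM in PCBP1-OE, a log2FC of -0.07 (SE 0.05). PCBP1-OE replicate 3 lay above 2 of the controls. Without control replicate 2, the highest library, the log2FC of Cd9 was -0.035.

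Cd151 (ENSRNOG00000019215, chromosome 1), the tetraspanin bound most firmly to the laminin-binding integrins, varied more between replicates, relative to its level, than the other members with enough counts for a fit. Its values were 10.2, 11.7 and 12.3 CPM in controls against 12.1, 8.13 and 6.94 CPM in PCBP1-OE. PCBP1-OE replicate 1 lay among the controls, while replicates 2 and 3 lay below all of them. The log2FC of -0.33 had an SE of 0.17, and it was -0.60 without PCBP1-OE replicate 1 and -0.16 without replicate 3, from 136 to 276 counts per library.

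**Figure D1:**
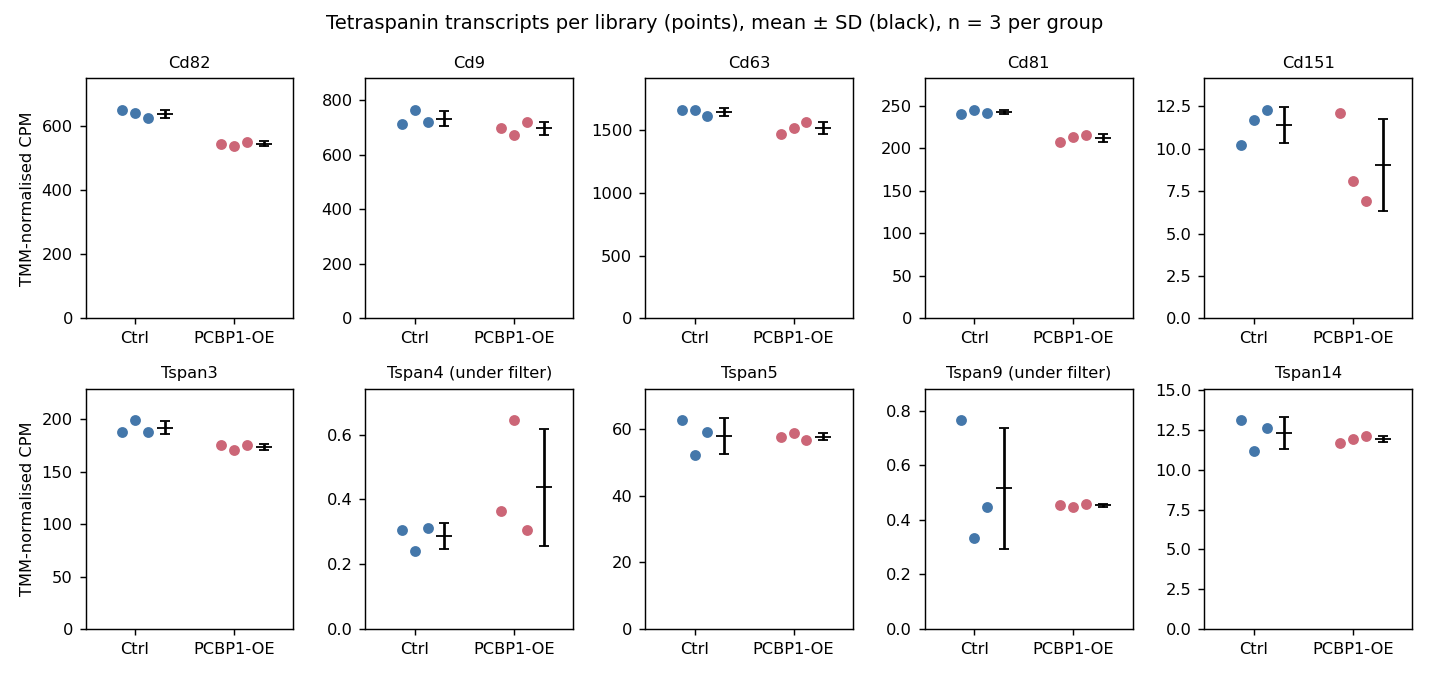
Each panel plots TMM-normalised CPM (vertical axis, from 0) for 1 of the 10 tetraspanins in the 3 Ctrl libraries (blue) and the 3 PCBP1-OE libraries (red), with the mean ± SD in black. The PCBP1-OE points of Cd82 (536 to 552) and Cd81 (207 to 216) sit below all control points, those of Tspan5 (56.8 to 59.0) sit within the control range, and Tspan4 and Tspan9 are near 0.

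Cd63 (ENSRNOG00000007650, chromosome 7), the endolysosomal member, was at 1663, 1663 and 1610 CPM in controls against 1473, 1514 and 1567 CPM in PCBP1-OE. The groups did not overlap, but control replicate 3 and PCBP1-OE replicate 3 lay close together. Its log2FC was -0.12 (SE 0.04). A second gene, Rdh5, overlaps Cd63 in the GRCr8 annotation, and since the strand setting of the counting is not given their reads cannot be told apart. Rdh5 itself had 27 to 74 counts per library, against 30540 to 36098 for Cd63.

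Tspan3 (ENSRNOG00000016474, chromosome 8), found in oligodendrocytes among other cells, was at 188, 199 and 188 CPM in controls. It was at 175, 170.3 and 175 CPM in PCBP1-OE, without overlap, and its log2FC was -0.14 (SE 0.04). For Tspan3 the difference was about 3 standard errors, and for Cd9 less than 2.

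The TspanC8 members showed little difference. Tspan5 (ENSRNOG00000015913, chromosome 2) was at 62.7, 52.2 and 59.3 CPM in controls against 57.8, 59.0 and 56.8 CPM in PCBP1-OE. Its log2FC was -0.0041 (SE 0.06), and the sign turned with the library left out, from -0.070 without control replicate 2 to 0.060 without control replicate 1. Tspan14 (ENSRNOG00000010813, chromosome 16) was at 13.1, 11.2 and 12.6 CPM against 11.7, 11.9 and 12.1 CPM, a log2FC of -0.05 (SE 0.10) that was 0.0050 without control replicate 1. In both genes the control libraries spread more widely than the PCBP1-OE libraries and enclosed them.

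Tspan4 and Tspan9 had too few counts for the fit. Tspan4 (ENSRNOG00000029810, chromosome 1) had 6, 5 and 7 counts in controls against 8, 13 and 6 in PCBP1-OE. Summed over 3 libraries, these are 18 counts (95% exact Poisson interval 10.7 to 28.4) and 27 (17.8 to 39.3). Tspan9 (ENSRNOG00000051620, chromosome 4), a tetraspanin of platelets, had 15, 7 and 10 counts in controls against 10, 9 and 9 in PCBP1-OE, or 32 (21.9 to 45.2) and 28 (18.6 to 40.5). The intervals overlap and cover counting error only, so no difference was detectable at this depth.

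Of the 10 members, 8 had enough counts for edgeR's quasi-likelihood test over 12624 genes, and all 8 had a log2FC below 0. This contrast was known when the members were chosen, so nothing is read from the count. Cd82 and Cd81 were called at an FDR of 0.05, that is 2 of 8, where 9.45% of all tested genes were called and 5.0% were called lower. The groups did not overlap in 4 of 8, namely Cd82, Cd81, Cd63 and Tspan3, against 30.6% of all tested genes in either direction and 16.5% lower in PCBP1-OE. Differences were small, and of the 24 genes that also passed a 2-fold change in edgeR, none was a tetraspanin. The median log2FC of the 8 was -0.13, and that of all tested genes 0.0029. Between 0 and 4 members were called when 1 library was left out. By edgeR, no member was called without control replicate 2 or PCBP1-OE replicate 2, where 3 had an unadjusted p under 0.05. Over all genes, these 2 fits called 48 of 12815 and 136 of 12828, with 2461 and 2733 at an unadjusted p under 0.05. One member was called without control replicate 1 or PCBP1-OE replicate 1, where 246 of 12842 and 169 of 12785 genes were called. Without control replicate 3, 4 members were called, and so were 2860 of all 12815 genes.

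Ratios of counts within a library need no scaling between libraries. The ratio of Cd82 to Cd9 was 0.911, 0.835 and 0.870 in controls against 0.779, 0.799 and 0.766 in PCBP1-OE, so Cd82 was lower beside Cd9 in every PCBP1-OE library. Beside Itgb1, the integrin β1 subunit, Cd82 went from 0.788 ± 0.0195 to 0.683 ± 0.0143 (SD, n = 3 each), again without overlap. The ratio of Cd82 to Cd81 overlapped between groups, at 2.63 ± 0.0614 and 2.56 ± 0.0619 (SD, n = 3 each). The ratio of Cd63 to Cd9 overlapped as well, at 2.25 ± 0.0781 and 2.18 ± 0.0742. Together the 29 tetraspanin genes in the table took 0.422% to 0.434% of all counts in controls against 0.398% to 0.403% in PCBP1-OE. Within that total, the share of Cd82 was 14.9%, 14.5% and 14.8% in controls against 13.9%, 13.7% and 13.6% in PCBP1-OE.

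**Figure D2:**
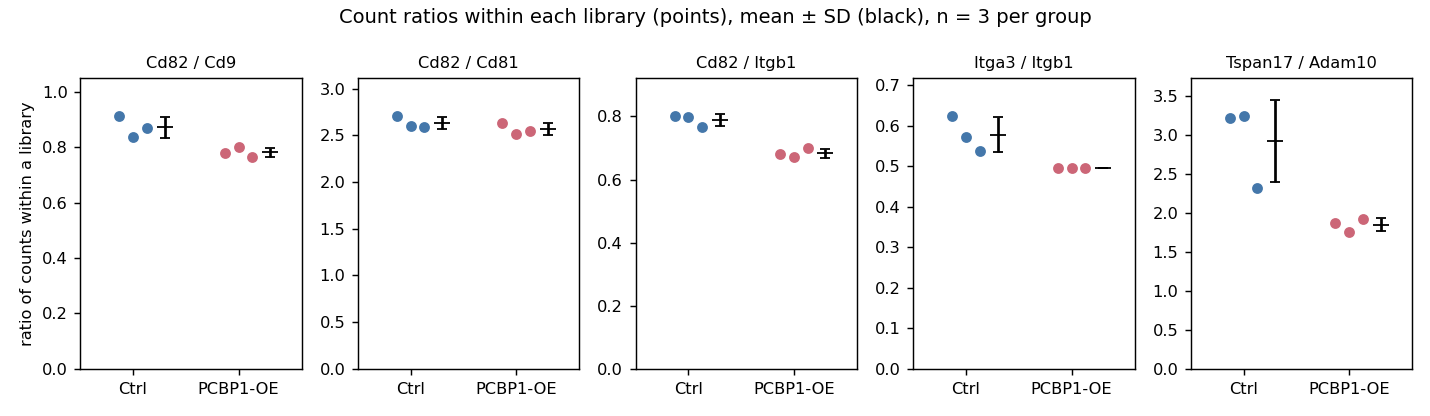
Ratios of counts within a library (vertical axes, from 0, no unit) for 5 pairs of genes in the 3 Ctrl (blue) and 3 PCBP1-OE (red) libraries, with mean ± SD in black. The groups are apart for Cd82 to Cd9, Cd82 to Itgb1, Itga3 to Itgb1 and Tspan17 to Adam10, and they overlap for Cd82 to Cd81, at 2.63 and 2.56 on average.

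The rest of the tetraspanin family was taken from a list of 22 symbols, of which 19 were in the table and 11 had enough counts. One of these 11 was called, Tspan17, which is 9.09%, near the 9.45% of all tested genes. Of the 11, 8 had a log2FC below 0 and 3 above 0, with a median of -0.16. Tspan17 (ENSRNOG00000018122, chromosome 17), a TspanC8 tetraspanin, fell from 57.5, 57.0 and 52.8 CPM in controls to 46.7, 46.5 and 45.8 CPM in PCBP1-OE. Its log2FC was -0.27 (SE 0.05, adjusted p = 0.0142 by edgeR's quasi-likelihood test). The call was lost without control replicate 1 (adjusted p = 0.0521) or 2 (0.0805) and without PCBP1-OE replicate 1 (0.0553) or 2 (0.0600).

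Tspan7 (ENSRNOG00000003229, chromosome X), a neuronal and neuroendocrine tetraspanin, was at 502, 512 and 464 CPM in controls against 444, 425 and 453 CPM in PCBP1-OE. The groups did not overlap, and the log2FC of -0.16 (SE 0.05) came with adjusted p = 0.0543, edgeR. Without control replicate 3, the lowest control, the edgeR adjusted p of Tspan7 was 0.0043. With any other single library left out it ranged from 0.0750 to 0.234. Tspan6, on chromosome X as well, was at 78.1 ± 2.93 and 72.5 ± 1.76 CPM, Tspan31 at 151 ± 3.82 and 144 ± 4.64 CPM, and Cd37 at 12.1 ± 0.747 and 10.6 ± 0.346 CPM (SD, n = 3 each). These 3 did not overlap between groups, and their adjusted p-values from the same edgeR test were 0.167, 0.375 and 0.278. The other tested genes had log2FCs of -0.24 for Rom1, -0.24 for Tspan33, -0.18 for Tspan13, 0.023 for Upk1a, 0.19 for Tspan15 and 0.20 for Tspan2, each with a standard error of 0.15 to 0.33. The 8 below the filter, Tspan1, Tspan8, Tspan10, Tspan11, Tspan12, Tspan18, Tspan32 and Cd53, had 0 to 24 counts per library. Cd53, a pan-leukocyte tetraspanin, had at most 1.

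**Figure D3:**
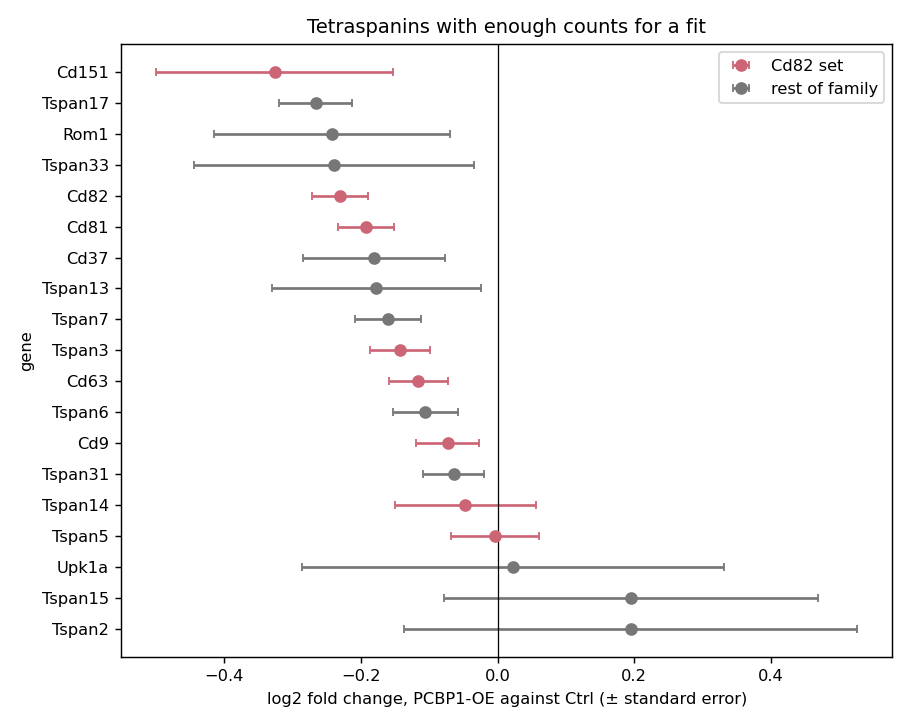
Log2 fold change of PCBP1-OE against Ctrl (horizontal axis) with its standard error for the 19 tetraspanins that passed the filter, the members in red and the rest of the family in grey. Most points lie left of 0, with Cd82 at -0.23, Cd81 at -0.19 and Tspan17 at -0.27, and the genes with few counts have the widest bars.

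Proteins known to associate with tetraspanins were taken from a list of 30, of which 29 were in the table and 27 were tested. Of these, 4 fell and 1 rose at an FDR of 0.05, or 18.5% called against 9.45% of all tested genes, and the median log2FC was -0.07. Itga3 (chromosome 10), the α3 subunit that pairs with Itgb1 in a laminin receptor and binds Cd151, fell from 507, 457 and 439 CPM to 397, 397 and 390.0 CPM, a log2FC of -0.25 (SE 0.05, adjusted p = 0.0178, edgeR quasi-likelihood test). The controls of Itga3 spread more than the PCBP1-OE libraries, and the lowest control was still above all of them. Igsf8 (chromosome 13), a direct immunoglobulin superfamily partner of Cd9 and Cd81, fell from 27.0, 26.4 and 21.1 CPM to 19.2, 18.7 and 19.7 CPM. Its log2FC was -0.37 (SE 0.10, adjusted p = 0.0383, same edgeR test). Its relative Ptgfrn had 41.5 ± 2.96 and 37.0 ± 1.88 CPM (SD, n = 3 each), which overlapped, with an adjusted p of 0.144 by edgeR. The edgeR adjusted p of Ptgfrn was 0.0253 without control replicate 3, and 0.180 to 0.386 with any other single library left out.

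Itga7, the laminin-binding α7 subunit, was at 280 ± 2.54 in controls versus 252 ± 2.501 CPM in PCBP1-OE (SD, n = 3 each; log2FC -0.15, edgeR adjusted p = 0.0339, or 0.0520 under upper-quartile scaling). Bsg, or basigin, an immunoglobulin superfamily chaperone of lactate transporters, was at 637 ± 28.2 and 563 ± 12.1 CPM (log2FC -0.18, edgeR adjusted p = 0.0327). Lgals3bp, a secreted glycoprotein that binds galectins and tetraspanins, rose from 272 ± 6.48 to 314 ± 24.2 CPM (log2FC 0.20, edgeR adjusted p = 0.0355). Itgb1, the shared β subunit of these integrins, differed far less, at 810.8 ± 8.68 and 796.6 ± 6.38 CPM (SD, n = 3 each; log2FC -0.03, SE 0.04, edgeR adjusted p = 0.719). The ratio of Itga3 to Itgb1 counts was 0.577 ± 0.0430 in controls against 0.495 ± 9.5e-04 in PCBP1-OE (SD, n = 3 each). None of the 5 calls on the partners held in the 4 edgeR fits that left out replicate 1 or 2 of either group. In these fits 6 to 11 of the 27 partners had an unadjusted p under 0.05, against 2461 to 2733 of all 12785 to 12842 genes. The adjusted p-values from edgeR were then 0.0699 to 0.0815 for Itga3, 0.131 to 0.176 for Igsf8, 0.107 to 0.179 for Itga7, 0.108 to 0.158 for Bsg and 0.0901 to 0.169 for Lgals3bp. Without PCBP1-OE replicate 3, Bsg (0.0485) and Lgals3bp (0.0396) held and Itga3 (0.0501), Igsf8 (0.0677) and Itga7 (0.102) did not. Without control replicate 3, 12 of the 27 were called, in a fit that called 2860 of all 12815 genes.

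The Adam10 list held the protease and 21 of the membrane proteins it cuts or is reported to cut, and 16 of the 22 were tested. Of these, 2 were called, or 12.5%, against 9.45% of all tested genes. Both were higher in PCBP1-OE, where 4.45% of all tested genes were called higher, and the median log2FC of the list was 0.06. Adam10 (ENSRNOG00000054257, chromosome 8), the sheddase whose traffic depends on TspanC8 tetraspanins, rose from 17.8, 17.6 and 22.8 CPM in controls to 24.9, 26.5 and 23.8 CPM in PCBP1-OE. Its log2FC was 0.37 (SE 0.10, adjusted p = 0.0437 by edgeR), and control replicate 3 lay near the PCBP1-OE libraries. Notch2 (ENSRNOG00000018835, chromosome 2), a receptor cut by Adam10 during signalling, rose from 13.6, 8.86 and 8.70 CPM to 14.8, 18.1 and 15.6 CPM, a log2FC of 0.64 (SE 0.16, edgeR adjusted p = 0.0266). Control replicate 1 of Notch2 lay close to PCBP1-OE replicate 1. Notch1 was at 71.4 ± 4.95 and 76.9 ± 2.97 CPM and App at 593 ± 20.8 and 603 ± 11.7 CPM (SD, n = 3 each), and both overlapped between groups.

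Set against Adam10 in the same library, Tspan17 counts were 3.22, 3.24 and 2.31 times those of Adam10 in controls against 1.87, 1.76 and 1.92 times in PCBP1-OE. For Tspan14 the ratio was 0.642 ± 0.0908 and 0.476 ± 0.0290, and for Tspan5 it was 3.03 ± 0.462 and 2.31 ± 0.0781 (SD, n = 3 each). In these 3 the groups did not overlap. No other tetraspanin was set against Adam10, so the ratios do not stand for the TspanC8 subgroup as a whole. The 3 ratios share Adam10 (log2FC 0.37) as denominator, and the CPM of Tspan14 and Tspan5 alone overlapped between groups. These ratios were chosen after the values had been seen and carry no test. The call on Adam10 held only without control replicate 3 (adjusted p = 9.4e-04 by edgeR) among the 6 fits with a library left out, and ranged from 0.0597 to 0.185 in the other 5. Notch2 held without control replicate 1 (0.0121) or 3 (0.0200), and ranged from 0.0541 to 0.146 in the other 4.

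Genes that sort and release exosomes came from a list of 33, with 32 in the table and 31 tested. Of these, 2 fell and 1 rose, or 9.68% called against 9.45% of all tested genes, with a median log2FC of -0.07. Sdc1 (chromosome 6), a heparan sulfate proteoglycan that recruits syntenin to endosomes, fell from 220.1, 215 and 206 CPM to 178, 178 and 184 CPM. The log2FC was -0.25 (SE 0.04, adjusted p = 0.00978 by edgeR). Flot1, a lipid raft scaffold, fell from 91.1 ± 5.80 to 79.8 ± 3.53 CPM (SD, n = 3 each; edgeR adjusted p = 0.0477), and was at 0.0660 under upper-quartile and 0.0502 under RLE scaling. Stam, an ESCRT-0 subunit that binds ubiquitinated cargo, rose from 122 ± 1.48 to 139 ± 2.58 CPM (SD, n = 3 each; log2FC 0.19, edgeR adjusted p = 0.0197). Sdcbp, or syntenin, which binds the tail of Cd63, had 516 ± 8.78 and 513 ± 10.8 CPM, and Pdcd6ip, or Alix, its ESCRT partner, 288 ± 10.95 and 293 ± 4.21 CPM (SD, n = 3 each), both with overlap. Without control replicate 1 or 2 or PCBP1-OE replicate 1 or 2 all 3 calls were lost, with edgeR adjusted p-values of 0.0551 to 0.0835 for Sdc1, 0.0795 to 0.140 for Stam and 0.114 to 0.200 for Flot1. Flot1 was also lost without PCBP1-OE replicate 3 (0.0784). Without control replicate 3 the list had 8 calls among 31 tested genes, in a fit that called 2860 of all 12815 genes.

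**Figure D4:**
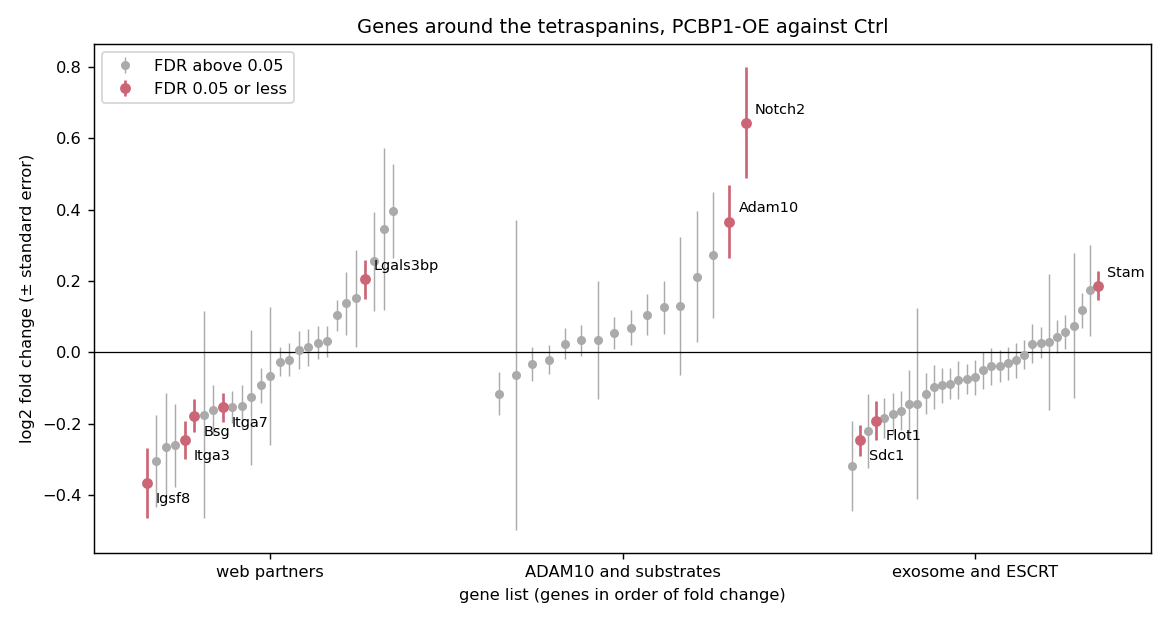
Log2 fold change of PCBP1-OE against Ctrl (vertical axis) with its standard error for each tested gene of 3 lists, in order of fold change within a list. Genes with an FDR of 0.05 or less are red and named, among them Igsf8 (-0.37), Itga3 (-0.25) and Sdc1 (-0.25) below 0 and Notch2 (0.64), Adam10 (0.37) and Stam (0.19) above 0.

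Over all genes with at least 10 CPM on average, 8462 were ranked by how far their log2 CPM, centred on each gene's mean, lay from that of Cd82 over the 6 libraries. The 5 nearest were St6galnac4, a sialyltransferase, Grk6, a kinase of G protein-coupled receptors, Idh2, a mitochondrial isocitrate dehydrogenase, Dalrd3, and Htra1, a secreted serine protease. Their mean absolute distances were 0.011, 0.012, 0.013, 0.013 and 0.015 on the log2 scale. Within the family, Cd81 stood at place 64 and Tspan17 at 119, followed by Tspan7 at 379, Tspan3 at 532 and Cd63 at 1033, while Cd9 was at 2309 and Cd151 at 7764. The ranking used the same libraries as the choice of Cd82 and describes them only.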

How the data were processed

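RNA-seq counts of reads per gene were used from 3 Ctrl and 3 PCBP1-OE libraries of cells labelled PC12, grouped and numbered by their titles. The authors deposited raw counts without normalization. According to the methods, they cleaned reads with FASTX-Toolkit, aligned them to Rnor_6.0 with TopHat2 and counted uniquely mapped reads. The labels name the build GRCh38, a human build, although the gene identifiers are those of rat. The sources used here do not name the counting tool, its strand setting or the annotation release. The labels name a VAHTS stranded mRNA kit for the libraries and the methods a KAPA kit.

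Version 4.0.16 of edgeR under R 4.3.3 gave the main quasi-likelihood fit over the whole table, with TMM scaling, filterByExpr (minimum count 10, minimum total 15), which kept 12624 genes, and Benjamini-Hochberg adjustment. A gene was called at an FDR of 0.05. Standard errors were derived from the fold change and the F statistic. Summaries used Python 3.11.15 (numpy 2.4.6, scipy 1.17.1). The pipeline was tested on simulated data. Depth was 19730209 to 22315623 counts. Nothing says that the replicates came from separate passages, so p-values measure the spread between these libraries. Chi-square values per gene of 5.49 to 16.0 between replicates exceeded sampling noise, so each library counted once.

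The members and gene lists were chosen with earlier results of these data known. Named genes are the members, the tested genes of the rest of the family, 7 fixed partners, the called genes of the other lists and the 5 genes most like Cd82. Other genes named with values (marker genes, Notch1, App and Rdh5) and the count ratios were chosen after their values were seen. Promoter sequences and gene order are from RefSeq tables of GRCr8, and 8 of 10 members had a promoter entry. As alternatives, scaling was changed to RLE or upper-quartile, the filter was dropped, DESeq2 1.42.0 was run, replicate numbers entered as a block, and the 6 libraries were omitted one at a time.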

Additional observations from a re-analysis of the deposited data

How the results depend on the processing

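The log2 fold changes of Cd82, Cd81, Cd63, Cd9, Tspan3 and Cd151 stayed below 0 in all 11 alternatives, and each moved by less than 1 SD of the replicates. Tspan5 turned sign under upper-quartile scaling (0.016) as well as with single libraries left out, and Tspan14 without control replicate 1 (0.0050). Counts of calls moved more, and the cause was not tested. No filter gave 2090 calls over all genes in place of 1193, with 2 in the rest of the family and 6 in the exosome list. DESeq2 called 4 members and 2 of the rest of the family, and 1367 of the 11014 genes to which it gave an adjusted p. Upper-quartile scaling gave 655 higher and 427 lower calls in place of 562 and 631, and moved the median of all genes to 0.023. Leaving out 1 library gave 48 to 2860 calls over all genes, 0 to 4 members, 0 to 2 of the rest of the family, 0 to 12 partners, 0 to 2 of the Adam10 list and 0 to 8 of the exosome list. Beyond the members, signs turned in genes that were not called, namely Tspan15 (-0.048 to 0.34 with 1 library left out, below 0 without PCBP1-OE replicate 2), Upk1a (-0.107 to 0.147, below 0 without control replicate 3, at -0.080, or PCBP1-OE replicate 2) and Sdcbp (0.014 under upper-quartile scaling and -0.017 to 0.013 with 1 library left out, above 0 without control replicate 2 or PCBP1-OE replicate 2, at 0.010).

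Same-numbered libraries did not deviate together (correlations -0.078, -0.051 and -0.043), so no pairing by replicate number was seen. With 3 libraries per group, this check cannot show that same-numbered libraries were prepared separately. With the replicate block, edgeR called 16 genes and 0 members, 0 of the rest of the family and 0 of each of the other lists. At an unadjusted p under 0.05 the block gave 2730 genes, 3 members, 2 of the rest of the family, 9 partners, 2 of the Adam10 list and 6 of the exosome list. Genes with few counts, such as Tspan4 and Tspan9, are not resolved at this depth.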

Other observations

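Neighbours here are the nearest protein-coding genes in the RefSeq gene order of GRCr8 whose symbols are also among the counted genes. Genes without a matching symbol, or overlapping the member, were passed over, so other genes may lie between. Several tetraspanin genes are such neighbours of one another, and the neighbours of the members were compared with them in the counts. Tspan18 is the neighbour of Cd82 on one side, and it had 5 to 24 counts per library. Ext2, a heparan sulfate polymerase subunit on the other side of Cd82, had a log2FC of -0.0098 (SE 0.05, adjusted p = 0.923 by edgeR), against -0.23 for Cd82. Tspan4, with 5 to 13 counts, is a neighbour of Cd151 in this sense, and Tspan11, with 2 to 12 counts, of Tspan9. Tssc4, a neighbour of Cd81, had a log2FC of -0.17 (SE 0.07, adjusted p = 0.116 by edgeR).

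Bloc1s1, a neighbour of Cd63, encodes a subunit of the complexes that build lysosome-related organelles. It had 961, 1017 and 929 counts in controls against 738, 673 and 703 in PCBP1-OE. Its log2FC was -0.44 (SE 0.07, adjusted p = 0.00835 by edgeR), against -0.12 for Cd63. Gdf11, on the other side of Cd63, had -0.08 (SE 0.06, adjusted p = 0.399 by edgeR). The neighbours were fixed by position among the counted genes, and why the values of neighbouring genes differ was not tested.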
